A study of Homo sapiens with 3 samples.

Results

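Broad H3K27ac regions without TEAD were H3K27ac peak intervals at least 2500 bp wide, on chromosomes 1 to 22 and X, that shared no base with any TEAD peak interval in 786-O cells. They were chosen by measured values, namely the width of the H3K27ac interval and the overlap with the TEAD list, so their width and their lack of TEAD are descriptions and no results. Of 52667 H3K27ac regions, 7668 were at least 2500 bp wide (broad), and 1282 of these held no TEAD. The other 6386 broad regions overlapped at least 1 of the 35241 TEAD regions and serve as the comparison. The 1282 regions covered 4.16 Mb, which is 13.0% of the broad regions' 32.1 Mb and 5.49% of all H3K27ac cover. No filter on low values was applied, so all 1282 enter every count below.

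The series holds 3 chromatin libraries of 786-O, a line from a human clear cell renal carcinoma, with 1 library each for H3K27ac, TEAD and input. No treatment, transgene or change of genotype is named in the labels, and all groups are the same unmodified line in the same medium. The title of the series names a complex of TEAD with NF-κB. With 1 library per group there is no replicate spread and no test. The intervals and standard errors below run over regions or counts and treat neighbouring regions as independent. They cover the spread over regions or the counting error, not the spread between libraries. Coordinates are hg19 positions counted from 1. Genes at the regions were not analysed here, so the cell line's label was not checked against marker genes.

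H3K27ac, acetylation of lysine 27 of histone H3, is laid down by the acetyltransferases p300 and CBP and marks active promoters and enhancers. Wide stretches of the mark are typical of strong promoters of expressed genes and of clustered enhancers. TEAD proteins bind DNA and recruit YAP and TAZ, the co-activators that the Hippo kinases restrain, mostly at enhancers, often beside AP-1 sites. A broad acetylated region with no TEAD peak is therefore one where the mark was wide while no TEAD peak passed the caller at the depth of this library, not one shown to lack TEAD.

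The share of H3K27ac regions without TEAD was 58.3% over the whole list and 16.7% among broad regions (1282 of 7668, 95% Wilson interval 15.9 to 17.6%). The share was lower in each wider class. It was 82.5% below 500 bp, 57.2% from 1000 to under 1500 bp and 37.8% from 2000 to under 2500 bp, just below the limit. Within the broad regions it was 27.6% (25.9 to 29.4%) at 2500 to under 3000 bp, where 669 of 2424 regions held no TEAD. At 3000 to under 4000 bp it was 18.5% (17.0 to 20.1%), or 456 of 2467. At 4000 to under 5000 bp it was 8.66% (7.21 to 10.4%), or 105 of 1212, and at 5000 bp or more it was 3.32% (2.54 to 4.33%), or 52 of 1565. A wider interval has more bases at which a TEAD peak can touch it, so the rule itself favours this order.

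**Figure D1:**
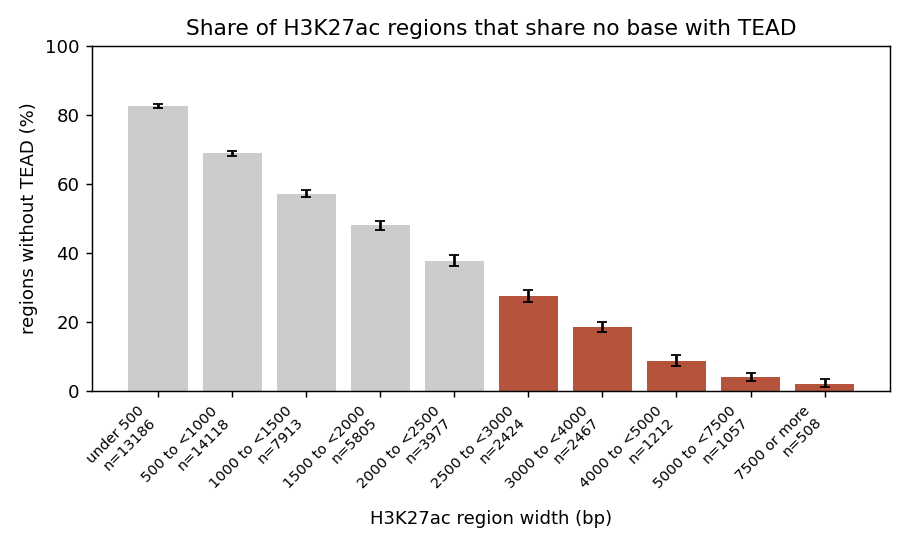
Percent of H3K27ac regions that shared no base with a TEAD region (vertical axis) by region width in bp (horizontal axis, n regions per class); bars are shares, whiskers 95% Wilson intervals, and coloured bars are the broad classes. The share is 82.5% below 500 bp and 1.97% at 7500 bp or more.

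Because of this order, the broad regions without TEAD were the narrower ones. Their median width was 2976 bp (quartiles 2702 and 3457 bp), against 3643 bp (2952 and 4885 bp) with TEAD. Comparisons of fold, gap and share in large domains are therefore also averaged over 4 width classes, each weighted by its number of regions without TEAD. Distance to TEAD and summit position are given for single classes. The flanks, the neighbours and the shares with TEAD within 1 kb or with no H3K27ac region within 25 kb were not compared at equal width. Just inside the limit lay regions of 2500, 2500 and 2501 bp with H3K27ac folds of 18.2, 8.63 and 14.1. Just outside it lay TEAD-free regions of 2499, 2499 and 2498 bp with folds of 17.3, 9.68 and 15.7. The other side of the rule was sparsely filled, since only 8 of the 6386 regions with TEAD overlapped it by at most 50 bp. The smallest overlap, chosen after the values were seen, was 7 bp at chr7:77054486-77057237.

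Acetylation at these regions was strong for the list and somewhat lower than at broad regions with TEAD. The fold is the authors' enrichment at the H3K27ac summit over the caller's local background. Its median was 13.9 (quartiles 10.2 and 19.0) in the 1282 regions without TEAD, 15.8 (11.8 and 20.9) in the 6386 with TEAD and 6.54 in all H3K27ac regions. A fold of at least 10 was reached by 979 regions without TEAD, 76.4%, by 86.0% of those with TEAD and by 30.5% of all H3K27ac regions. Over H3K27ac regions without TEAD of any width, the median fold was 4.33 below 500 bp and 12.4 at 2000 to under 2500 bp. The choice by width thus itself favours folds above those of the whole list. A fold of at least 30 was reached by 21 regions without TEAD, 1.64%, against 4.70% with TEAD. The median number of reads at the summit, recovered from the deposited values, was 58 against 69. The local background there had a median of 3.16 reads against 3.38 with TEAD; the fold difference matched on background is given with the width classes.

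At equal width the fold difference was small in the narrow classes and larger in the wide ones. Mean log2 fold was 3.79 ± 0.62 (SD over regions) without TEAD and 3.97 ± 0.58 (SD) with TEAD, a difference of -0.18. Averaged over width classes the difference was -0.07 ± 0.02 (SE over regions, 95% interval -0.11 to -0.03), and it was -0.08 when width classes were crossed with quintiles of background. It was -0.04 ± 0.03 (SE) at 2500 to under 3000 bp, with median folds of 13.3 and 13.6. It was -0.05 ± 0.03 at 3000 to under 4000 bp, with medians of 14.4 and 14.8. At 4000 to under 5000 bp it was -0.19 ± 0.06, with medians of 14.3 and 16.2, and at 5000 bp or more it was -0.29 ± 0.08, with medians of 16.2 and 19.4. With TEAD regions below 5-fold disregarded, the average over classes was -0.01 (95% interval -0.04 to 0.02). With TEAD at −log10 q of at least 5 it was -0.03 (-0.06 to 0.01), so both intervals included 0. Across regions, the rank correlation of width with fold was 0.07 in the 1282 regions without TEAD and 0.30 in the 6386 with TEAD. Both values are descriptions within 1 library, where width and fold come from the same reads.

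**Figure D2:**
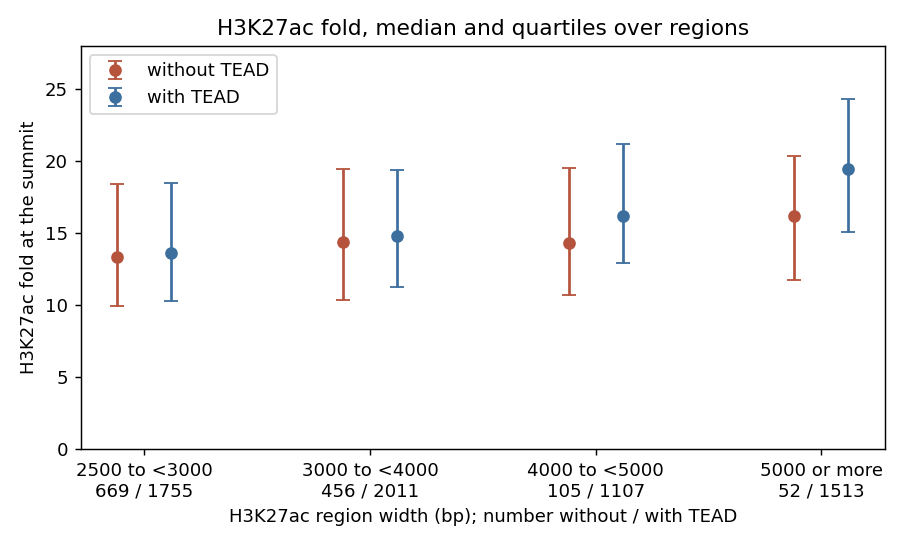
H3K27ac fold at the summit (vertical axis) by region width in bp (horizontal axis) for broad regions without and with TEAD; points are medians, whiskers are quartiles over regions. The medians nearly meet at 2500 to under 3000 bp (13.3 and 13.6) and stand apart at 5000 bp or more (16.2 and 19.4).

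Broad regions without TEAD stood farther from other acetylated regions, and those narrower than 4000 bp had higher median folds the more isolated they were. Broad regions with TEAD shared part of that rise at like width, as given below. The gap from a region to the nearest other H3K27ac region had a median of 2.69 kb without TEAD and 1.06 kb with TEAD, a ratio of 2.54. Geometric mean gaps gave a ratio of 1.69, and 1.296 (95% interval 1.15 to 1.46) within width classes. Within 25 kb, 14.0% (12.2 to 16.0%) of the regions without TEAD had no other H3K27ac region, against 8.22% (7.57 to 8.92%) of those with TEAD. The 494 regions without TEAD that had another H3K27ac region under 1 kb away had a median fold of 12.5. The 422 with a gap of 1 to 10 kb had 13.9, and the 366 with a gap over 10 kb had 16.4. Broad regions with TEAD had medians of 15.9, 15.3 and 16.3 over the same gaps. Fold and gap had a rank correlation of 0.24 without TEAD and 0.00 with TEAD, as descriptions across regions of 1 library.

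That contrast depended partly on width, since broad regions with TEAD and a close neighbour were often wide. At 2500 to under 3000 bp the medians from the shortest to the longest gap were 11.8, 13.0 and 16.7 without TEAD, and 12.8, 13.1 and 15.9 with TEAD. Both kinds thus rose with the gap in that class. At 3000 to under 4000 bp they were 12.8, 14.3 and 16.4 without TEAD and 14.6, 14.4 and 16.1 with TEAD. The difference in mean log2 fold (without minus with TEAD) in the latter class was -0.20 ± 0.05 (SE) under 1 kb, -0.04 ± 0.06 at 1 to 10 kb and 0.10 ± 0.05 over 10 kb. In the narrower class it was -0.11 ± 0.05, -0.04 ± 0.05 and 0.02 ± 0.05. Among isolated regions narrower than 4000 bp the differences were thus near or above 0, while they were below 0 by over 2 SE in regions under 1 kb from another. In the 298 isolated regions of at least 4000 bp, only 20 held no TEAD, and the difference was -0.20 ± 0.12. From 4000 bp the medians without TEAD were 14.0, 16.6 and 14.7 from the shortest to the longest gap, against 18.4, 17.5 and 17.7 with TEAD, so the order of the narrower classes was not seen there.

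**Figure D3:**
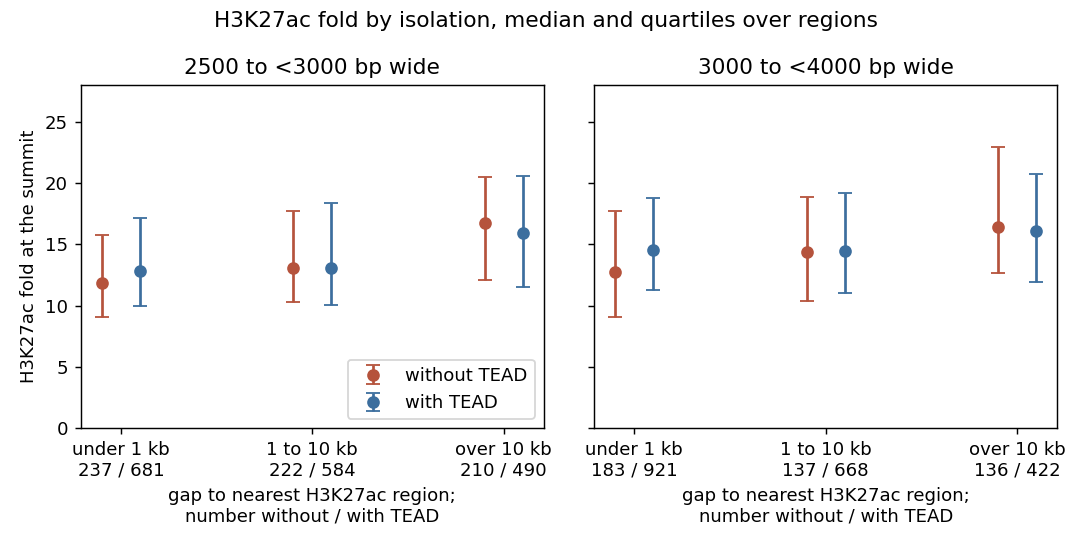
H3K27ac fold at the summit (vertical axis) by the gap to the nearest other H3K27ac region (horizontal axis), in 2 width classes, for broad regions without and with TEAD; points are medians, whiskers quartiles over regions. Without TEAD the medians run from 11.8 to 16.7 (2500 to under 3000 bp) and from 12.8 to 16.4 (3000 to under 4000 bp) from the shortest to the longest gap.

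The share without TEAD also differed by gap. It was 13.6% (12.5 to 14.8%) under 1 kb, 17.0% (15.6 to 18.5%) at 1 to 10 kb and 23.5% (21.5 to 25.7%) over 10 kb. At 2500 to under 3000 bp, where widths were nearly alike, the shares were 25.8%, 27.5% and, with 210 of 700 regions, highest over 10 kb, and their intervals overlapped. At 3000 to under 4000 bp they were 16.6% (14.5 to 18.9%), 17.0% (14.6 to 19.8%) and 24.4% (21.0 to 28.1%). From 4000 bp they were 4.60% (3.68 to 5.74%), 7.23% (5.69 to 9.15%) and 6.71% (4.39 to 10.1%).

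The sequence around the regions was not free of TEAD. The nearest TEAD region lay a median of 8.99 kb from the edge (quartiles 3.34 and 25.1 kb), within 10 kb for 53.0% (50.2 to 55.7%) and beyond 50 kb for 149 of the 1282 regions. Broad regions with TEAD had their next, non-overlapping TEAD region at a median of 7.87 kb. Within width classes the order was not constant. At 2500 to under 3000 bp the medians were 10079 bp without and 9989 bp with TEAD, and at 3000 to under 4000 bp 9552 and 8261 bp. At 4000 to under 5000 bp they were 5974 and 7233 bp, and at 5000 bp or more 5256.5 and 6015 bp. Between 1 and 2.5 kb from the edge there were 4.39 TEAD summits per 100 kb (95% counting interval 3.76 to 5.11) without TEAD and 4.46 (4.16 to 4.77) with TEAD. Between 5 and 10 kb there were 4.75 (4.38 to 5.14) and 5.24 (5.07 to 5.42), and between 25 and 50 kb 3.32 (3.18 to 3.46) and 3.64 (3.57 to 3.70). Other H3K27ac regions covered 15.6% and 18.8% of the bases at 1 to 2.5 kb, 14.6% and 16.8% at 5 to 10 kb, and 9.46% and 10.6% at 25 to 50 kb. Acetylation was sparser around regions without TEAD at each distance; the TEAD values beyond 2.5 kb were lower too, with intervals that overlapped up to 10 kb. Windows of neighbouring regions share bases, which makes these intervals too narrow. The flanks were not compared at equal width.

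**Figure D4:**
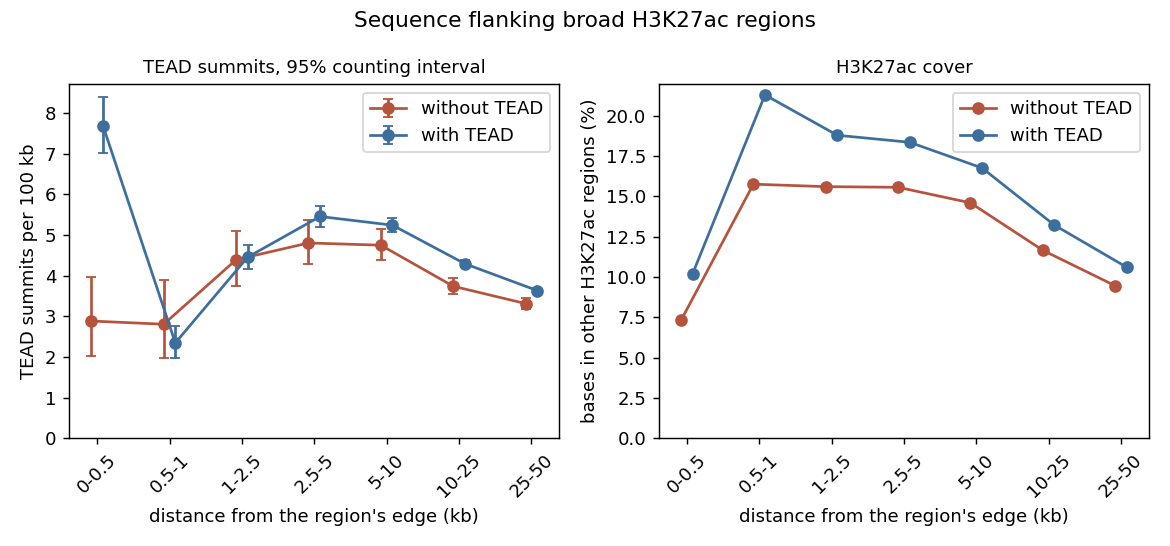
TEAD summits per 100 kb (left, with 95% counting intervals) and percent of bases in other H3K27ac regions (right) by distance from the edge in kb, around broad regions without and with TEAD. At 1 to 2.5 kb the TEAD values are 4.39 and 4.46; in the first 0.5 kb the 7.69 of regions with TEAD includes TEAD regions that overlap them with the summit outside, which the rule removes from the 2.89 of the others.

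The share of neighbouring acetylated regions that carried TEAD was compared next. Of 4692 H3K27ac regions within 25 kb of a broad region without TEAD, 37.6% (36.2 to 38.9%) held TEAD. Of 19401 within 25 kb of a broad region with TEAD, 38.4% (37.7 to 39.1%) did, a difference of -0.87 percentage points (95% interval -2.41 to 0.68). The difference was -1.27 points (-2.53 to -0.0065) with TEAD of at least 5-fold, -1.70 (-3.13 to -0.27) with TEAD at −log10 q of at least 5 and -3.80 (-5.45 to -2.16) with TEAD within 1 kb of an edge counted too. In the setting that gave -3.80, a neighbour within 1 kb of TEAD inside a broad region was also counted as holding TEAD. A broad region without TEAD could lend none, so that setting itself favours a value below 0. From 3500 bp it was 0.47 points (-2.20 to 3.14). Among neighbours that were broad themselves the shares were 84.7% (82.2 to 86.8%) and 85.2% (84.0 to 86.3%). Among neighbours of 1000 to under 2500 bp they were 45.7% (42.9 to 48.4%) and 49.1% (47.7 to 50.4%), and among those under 1000 bp 15.0% and 16.2%. Some neighbours lay near both kinds and were counted in both.

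A TEAD region lay within 1 kb of an edge for 96 of the 1282 regions, 7.49% (6.17 to 9.06%), against 14.5% of all 30701 H3K27ac regions without TEAD. Of the broad regions with TEAD, 332, 5.20% (4.68 to 5.77%), had a further, non-overlapping TEAD region that close. A TEAD region lay within 1 kb on both sides for 2 of the 1282. The TEAD regions within 1 kb had a median fold of 6.79, against 7.79 for the 9783 TEAD regions that overlapped broad regions and 7.14 for all 35241. The 3 nearest lay 1, 2 and 9 bp outside the edge. The first, of 5.36-fold, lay beside the region at chr14:91524590-91527137, whose own H3K27ac fold was 29.96. The second, of 7.05-fold, lay beside chr9:26244128-26247074 (8.92-fold), and the third, of 5.77-fold, beside chr6:159078457-159081140 (13.6-fold). These regions met the rule by a few bases. Among the broad regions with TEAD, 122 held no TEAD summit, and 12.3% had no TEAD region of at least 5-fold.

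To see larger neighbourhoods, H3K27ac regions no more than 12.5 kb apart were merged into a domain. The 1282 regions fell in 1199 domains, and 316 of them, 24.6% (22.4 to 27.1%), were alone in their domain. The domain of a region that is alone is the region itself, so it holds no TEAD by the rule, and 10 of the 316 had a TEAD region within 1 kb. Of all 30701 H3K27ac regions without TEAD, the 1282 included, 22.03% (21.57 to 22.49%) were alone, an interval that overlapped that of the 1282. Of the 6386 broad regions with TEAD, 16.07% (15.19 to 16.99%) were alone. These shares were not compared at equal width. The 316 had a median H3K27ac fold of 16.5 (quartiles 12.2 and 21.98). Of the 966 regions with at least 1 other H3K27ac region in the domain, 203 lay in a domain whose span touched no TEAD region. Those 203 had a median fold of 15.4 (10.7 and 20.02) and a median width of 2928 bp. The 763 whose domain held TEAD elsewhere had a median fold of 12.8 (9.51 and 17.4) and a median width of 3017 bp. The nearest other H3K27ac region was a median of 1029 bp away from the 203 and 893 bp from the 763. The quartiles of the 3 sets overlapped.

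Most broad regions without TEAD were the only one of their kind in their domain, though 966 of the 1282 shared it with other H3K27ac regions. There were 76 domains with 2 or more broad regions without TEAD, 159 regions in all, and no domain held over 3. The like count for broad regions with TEAD was not made, so these counts show no trait particular to the group. A compact example, chosen after its values were seen, is the domain at chr19:42745899-42790616, in which 3 of the 5 H3K27ac regions were broad without TEAD and 2 TEAD regions lay elsewhere. Domains were ranked by fold times width, summed over their regions, and those beyond the tangent of slope 1 to the scaled ranking were taken as large, 863 of 22587. Large domains held 16.0% of all H3K27ac regions, 26.3% (24.0 to 28.8%) of the broad regions without TEAD and 33.5% (32.4 to 34.7%) of those with TEAD. Within width classes the sign was the opposite, with a share 3.96 percentage points (1.34 to 6.59) higher without TEAD. The interval of this difference included 0 with TEAD at −log10 q of at least 5 (2.26 points, -0.16 to 4.67), and from 3500 bp the sign changed (-0.66 points, -6.12 to 4.79). At 2500 to under 3000 bp the shares were 20.6% (17.7 to 23.9%) and 16.2% (14.6 to 18.0%). At 4000 to under 5000 bp they were 33.3% (25.05 to 42.8%) and 34.2% (31.5 to 37.1%). At 5000 bp or more they were 65.4% (51.8 to 76.8%) and 66.5% (64.1 to 68.8%). A region's own width and fold count toward its domain's rank.

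The widest region without TEAD, 12459 bp, lay at chr1:54194934-54207392. Its fold was 21.9 (counting interval 17.3 to 27.4, from 74 reads at the summit), the nearest TEAD region was 43.6 kb away and the nearest other H3K27ac region 42.1 kb away. It was the only one of the 10 widest with such a clear surrounding: in the other 9 the nearest H3K27ac region lay between 0.157 and 3.005 kb away and the nearest TEAD region between 0.749 and 6.42 kb. The second widest, 10103 bp at chr3:98248617-98258719, had a fold of 14.5. A pair lay close together, chr17:46686201-46695573 (9373 bp, 25.3-fold) and chr17:46617819-46625731 (7913 bp, 26.6-fold), the latter 0.749 kb from a TEAD region. Another, chr17:80185858-80194828, reached 20.3-fold over 8971 bp. The region chr6:45675946-45685030 (9085 bp) had the lowest fold of the 10, 11.05, over a background of 7.06 reads, the highest of the 10.

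The remaining 4 of the 10 widest were between 7646 and 8280 bp. They were chr5:172275853-172284132 (19.6-fold), chr1:151942704-151950658 (16.5-fold), chr10:33536124-33544014 (16.8-fold) and chr6:158486961-158494606 (17.3-fold). For scale, the widest broad region with TEAD was 45558 bp at chr14:62012651-62058208, with 16 TEAD regions and an H3K27ac fold of 33.4. The next 4 with TEAD were between 24147 and 37179 bp wide and held 3 to 11 TEAD regions. The 26586 bp region at chr2:234597711-234624296 held 3, the fewest of those 5.

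The 5 highest folds without TEAD were at regions of 2881 to 3798 bp, where the upper quartile of the group's width was 3457 bp. The highest fold, 49.3 (counting interval 40.9 to 58.8, 121 reads), was at chr22:50327048-50330611, 3564 bp wide, with the nearest TEAD region 15.4 kb away. That value lay close to the highest among broad regions with TEAD, 50.4. Next came chr1:36620421-36624154 (41.4-fold, 35.0 to 48.6). A pair on chromosome 4, chr4:1240077-1243874 (38.6-fold) and chr4:1338517-1342275 (38.3-fold), followed, with nearly equal widths of 3798 and 3759 bp. Each had 110 reads at the summit, over backgrounds of 1.88 and 1.90 reads. The fifth was chr12:6492045-6494925 (37.7-fold, 31.9 to 44.2). The counting intervals of these 5 regions overlapped.

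The weakest of the group had folds of 4.01 to 4.22 and widths of 2520 to 3295 bp. They had 20 to 36 reads at the summit over a background of 4.23 to 7.76 reads, above the group's median background of 3.16. The lowest was at chrX:10577349-10580321, with a counting interval of 2.53 to 6.09 on its fold of 4.01. Even so, the lowest −log10 q of any region without TEAD was 6.22, above the 2.05 at which the H3K27ac list ended. A stricter limit of 5 on −log10 q could therefore remove none of the 1282.

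Regions far from all TEAD had folds in the range of the group. The farthest, at chr15:94772525-94775513, was 768 kb from the nearest TEAD region, with a fold of 13.2. Then followed chr1:148927932-148932218 (291 kb, 12.5-fold), chr7:35839490-35842205 (282 kb, 24.0-fold), chr1:99126605-99129144 (278 kb, 15.2-fold) and chr5:137088473-137091068 (261 kb, 22.7-fold). Of these 5, the regions on chromosomes 15 and 5 had another H3K27ac region within 1.61 kb, and the others had none within 69 kb. The 149 regions over 50 kb from TEAD had a median fold of 15.8, against 13.1 for the 96 with TEAD within 1 kb.

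The position of the summit within the interval was similar in both kinds. The summit lay in the middle 40% of the interval in 69.3% (66.7 to 71.7%) of regions without TEAD and 67.5% (66.3 to 68.6%) of those with TEAD. At 2500 to under 3000 bp the shares were 73.2% (69.8 to 76.5%) and 71.8% (69.6 to 73.9%). At 3000 to under 4000 bp they were 65.8% (61.3 to 70.0%) and 69.7% (67.6 to 71.6%).

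By chromosome, the share of broad regions without TEAD ran from 12.3% (9.42 to 15.8%, 50 of 408) on chromosome 10 to 25.6% (18.8 to 33.7%, 33 of 129) on chromosome X. The intervals of all chromosomes but 4, 10 and X included the overall 16.7%. With the overall share of each width class applied to its regions, the value would be 15.3% on chromosome 10 and 18.4% on chromosome X. Chromosome 13 had 21.95% (14.4 to 32.1%, 18 of 82) and chromosome 4 had 21.4% (16.9 to 26.7%, 58 of 271). Chromosome X also had the fewest TEAD regions per H3K27ac region, 0.527, and a mean background at broad regions of 2.32 reads, against 1.999 on chromosome 13 and 3.60 on chromosome 10. DNA copy number was not measured, and its part in these shares was not tested. Across quintiles of background over all broad regions the share was 20.3% (18.4 to 22.4%), 16.6%, 15.8%, 16.2% and 14.7% (13.0 to 16.6%) from the lowest to the highest. The median width was 3240 bp in the lowest quintile and 3587 bp in the highest. At 2500 to under 3000 bp the shares were 30.1%, 25.4%, 28.5%, 27.7% and 25.8% from the lowest to the highest quintile, with no steady fall.

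**Figure D5:**
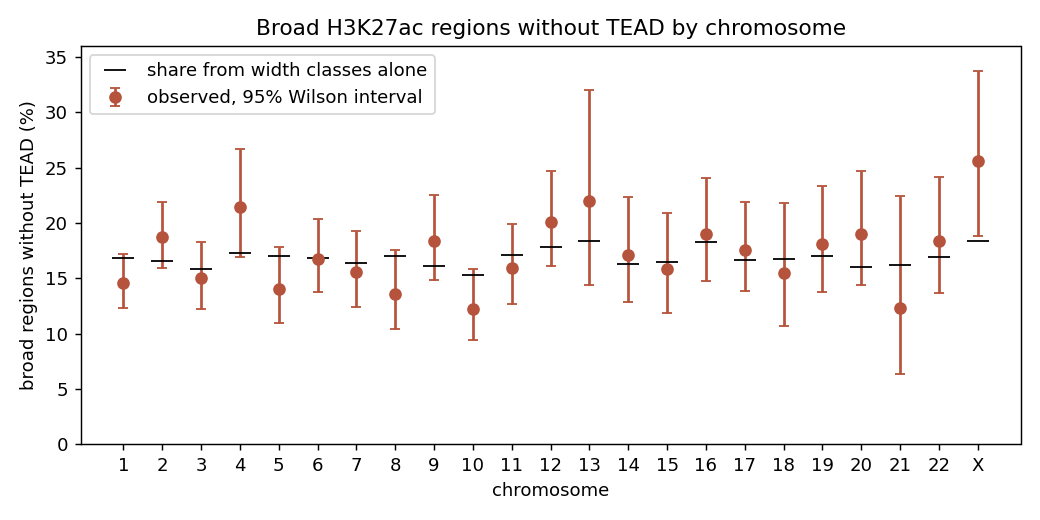
Percent of broad H3K27ac regions without TEAD (vertical axis) by chromosome (horizontal axis); points are observed shares with 95% Wilson intervals, and bars are the shares that the width classes alone would give. Chromosome X stands highest at 25.6% and chromosome 10 lowest at 12.3%.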

How the data were processed

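Peak lists for H3K27ac and TEAD, each called on 1 library, were used as deposited; no input values were analysed here. Per the submitters' processing notes, fastp, Bowtie2 2.4.5 and MACS2 were used with build hg19; no source used here gives their roles, the control or the threshold. The authors deposited, per peak, the fold enrichment at the summit (a ratio), its −log10 p and −log10 q, a score (10 times the −log10 q to within 1 unit, unused) and the summit offset in bp.

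Intervals on chromosomes 1 to 22 and X were compared in Python 3.11.15 with NumPy 2.4.6, pandas 2.3.3 and SciPy 1.17.1. TEAD counted if it shared 1 bp. Summit reads (a whole number) and background were solved from the 2 deposited values, taking the fold as reads plus 1 over background plus 1 and p as the upper Poisson tail beyond the reads; a solution within 0.002 of the −log10 p existed for 100% of regions. No source used here gives the absolute depth of the libraries, and the background had a floor of 1.45 reads. Gaps are counted between interval edges. The code was checked on simulated intervals.

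Regions named singly were the 10 widest, the 5 highest and 5 lowest in fold, the 5 farthest from and 3 nearest to TEAD, 3 on each side of the width limit, and the 5 widest with TEAD. Members, classes and measures were chosen with earlier results of these data known. Planned comparisons of gene starts, base composition and motifs, the gene lists and printed sequences were left out, since the reference tables used here are of another build.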

Additional observations from a re-analysis of the deposited data

How the results depend on the processing

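Of 67 recomputed values, 41 stayed within the 95% interval of the reported value, 24 moved beyond it and 2 changed sign. The H3K27ac limit of 5 on −log10 q removed no broad region, since their lowest values were 6.22 without and 5.13 with TEAD. Those of the 41 that rest on broad regions and TEAD alone were thus fixed under that limit. The share of broad regions without TEAD (16.7%) followed the definitions: 23.9% from 2000 bp, 8.27% from 3500 bp, 18.3% with TEAD counted by its summit, 26.97% with TEAD of at least 5-fold (2068 regions), 20.3% with TEAD at −log10 q of at least 5, and 15.5% with TEAD within 1 kb counted too. The log2 fold difference (-0.18) was -0.22 from 3500 bp, -0.11 with 5-fold TEAD and -0.14 with the q limit. Averaged over width classes (-0.07) it was -0.13, -0.0070 and -0.029 under the same settings, and the intervals of the last 2 included 0. The median distance to TEAD (8.99 kb) was 10.3 kb from 2000 bp, 6.51 kb from 3500 bp, 7.91 kb by summit, 11.2 kb with 5-fold TEAD and 10.3 kb with the q limit. The share with TEAD within 1 kb (7.49%) was 10.4% from 3500 bp, 15.5% by summit and 4.69% with 5-fold TEAD. By summit, the 122 broad regions that overlapped TEAD but held no TEAD summit joined the group and were counted as within 1 kb. That setting itself favours a shorter median distance and a higher share.

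The ratio of median gaps (2.54) was 1.80 by summit, 2.95 with TEAD within 1 kb counted and 1.95 with H3K27ac at −log10 q of at least 5. The difference in TEAD among neighbours (-0.87 points) was -3.80 with TEAD within 1 kb counted and changed sign, 0.47, from 3500 bp; the higher share in large domains within width classes (3.96 points) also changed sign there, -0.66, with 309 regions left. The settings on TEAD and on width changed which regions made up both groups. The cause of these shifts beyond that was not tested. The setting with TEAD within 1 kb counted itself favours a neighbour difference below 0. Leaving out chromosome 2, which held the most regions, moved no value beyond its interval. The gap, neighbour and domain results, the finer width classes, the background quintiles and the run without chromosome X were chosen after seeing the data. No paired analysis was possible because each group had 1 library. The depth of 1 TEAD library limits which weak sites could be called.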
